A study of Mus musculus with 12 samples.

Results

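Transcripts of the uncoupling proteins *Ucp1*, *Ucp2* and *Ucp3* were followed by RNA-seq in scWAT, the subcutaneous fat, of wild-type mice and of *Jmjd1a* HY/HY mice (HY/HY mice). These 3 genes were picked by symbol from the 55401 genes of the count files, and each symbol belonged to 1 gene ID. RNA came from 12 female mice, aged 16 weeks at the start of the treatment, with 3 mice in each of 4 groups. Wild-type (*Jmjd1a* +/+, C57BL/6J background) and *Jmjd1a* HY/HY mice were caged singly, kept at 30°C for 1 week and then held for 1 more week at 30°C (thermoneutral) or at 8°C (cold). The HY allele puts H1122Y into JMJD1A, a histone H3K9 demethylase whose gene is listed as *Kdm3a*, and was made by CRISPR-Cas9 editing of C57BL/6J eggs. It is carried in every tissue, so the sympathetic nerves, immune cells and brown fat of *Jmjd1a* HY/HY mice hold it as well as the adipocytes. Editing gave 2 lines of mice, and per the study the females it used were of line #1, so the allele is read here in a single line.

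Uncoupling proteins are carriers of the inner mitochondrial membrane and belong to the SLC25 family. UCP1 lets protons return to the matrix without ATP being made, so that respiration gives heat, and it is the defining protein of brown and beige adipocytes, which switch it on when noradrenaline reaches their β-adrenergic receptors in the cold. UCP2 is found in many cell types, with much of it in macrophages and lymphocytes, and UCP3 is known mainly from skeletal muscle and brown fat, where it is tied to the handling of fatty acids.

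The genes lie at 2 loci. *Ucp1* (ENSMUSG00000031710.4) is at chr8:83290348-83298456 on the plus strand of GRCm38.p6, the mm10 build. *Ucp3* (ENSMUSG00000032942.14, chr7:100472991-100486432) and *Ucp2* (ENSMUSG00000033685.13, chr7:100493337-100499629) stand head to tail on the plus strand of chromosome 7, with 6905 bases between the end of *Ucp3* and the start of *Ucp2*. The 250 bases upstream of a RefSeq transcript start of each gene are shown because the 3 genes responded to cold so differently. *Ucp1* is read at chr8:83290098-83290347, *Ucp2* at chr7:100493108-100493357 and *Ucp3* at chr7:100472741-100472990. For *Ucp2* that transcript starts at position 100493358, 21 bases after the start of the gene given above, and for the other two genes it starts where the gene does. Capitals mark TGACG, the half-site of a cAMP response element, AGGTCA, the half-site of nuclear receptors, and the TATA letters TATATA or TATAAA, searched on both strands.
Ucp1: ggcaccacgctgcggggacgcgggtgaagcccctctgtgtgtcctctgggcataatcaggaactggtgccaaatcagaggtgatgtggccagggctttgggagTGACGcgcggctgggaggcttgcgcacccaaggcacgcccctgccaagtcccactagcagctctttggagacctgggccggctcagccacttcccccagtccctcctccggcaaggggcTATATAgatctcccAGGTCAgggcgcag
Ucp2: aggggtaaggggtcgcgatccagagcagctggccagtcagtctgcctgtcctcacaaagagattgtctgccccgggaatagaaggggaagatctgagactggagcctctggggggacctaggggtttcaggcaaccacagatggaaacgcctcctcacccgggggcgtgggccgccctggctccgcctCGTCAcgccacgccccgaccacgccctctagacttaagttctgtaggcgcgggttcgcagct
Ucp3: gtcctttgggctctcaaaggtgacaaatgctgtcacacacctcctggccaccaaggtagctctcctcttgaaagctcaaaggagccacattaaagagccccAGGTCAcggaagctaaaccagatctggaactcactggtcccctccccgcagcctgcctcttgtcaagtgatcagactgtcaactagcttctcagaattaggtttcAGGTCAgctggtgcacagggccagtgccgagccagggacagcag

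The *Ucp1* window held TGACG at −147 from the transcript start, TATATA at −28 and AGGTCA at −14. The *Ucp2* window held TGACG on the minus strand at −62 (printed as CGTCA) and no other capitalised motif. The *Ucp3* window held AGGTCA at −149 and at −44 and neither TGACG nor a TATA motif. Of 32851 RefSeq promoters, each searched over the 250 bases upstream of its start, 17.8% held TGACG, 14.0% AGGTCA, 5.25% TATATA and 12.4% TATAAA. The full element TGACGTCA was in 1.55% of promoters and in none of the 3 windows. The E-box CANNTG was in 66.2% of promoters, with 2 matches for *Ucp2*, 3 for *Ucp3* and none for *Ucp1*, and CCAAT was in 33.8% and in none of the 3. The GC content of the printed stretch was 64.8% for *Ucp1*, 63.6% for *Ucp2* and 54.8% for *Ucp3*.

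The libraries held 13592629 to 26352081 read pairs on the sense strand of genes (median 18130585), and the 6 libraries of cold mice held fewer than any of the 6 at 30°C. Levels are given as CPM, counts scaled to a common library size with TMM factors. Changes are log2 fold changes with their standard error from 1 edgeR quasi-likelihood model over the 4 groups and 16540 genes, with Benjamini-Hochberg adjusted p-values over all of these genes. All 3 genes passed the filter on low counts. A gene is called higher or lower where the adjusted p is under 0.05 and the fold at least 1.5 or at most 0.67. In wild-type mice this held at 8°C against 30°C for 10.3% of genes as higher and 6.93% as lower. White adipocyte transcripts were high throughout, with the adiponectin gene *Adipoq* at 1214 to 3790 CPM, while 1 library, replicate 2 of wild-type mice at 30°C, stood apart with 1989 CPM summed over skeletal muscle markers against 44.5 to 96.2 CPM in the other 11.

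*Ucp1* was nearly silent at 30°C, and in wild-type scWAT its response to 8°C was the largest rise of any gene tested. In wild-type mice at 30°C it was at 4.58, 0.433 and 1.06 CPM in replicates 1, 2 and 3, and at 8°C at 5048, 5351 and 6055 CPM. All 3 cold libraries lay above all 3 at 30°C; in this comparison the groups did not overlap for 43.4% of genes, in one direction or the other. Their means were 5484 ± 517 CPM (SD, n = 3) and 2.02 ± 2.23 CPM (SD, n = 3), and the fitted log2 change of 11.41 (standard error 1.10, adjusted p = 5.08e-05 from edgeR) was the highest of the 16540 genes. It was 12.9 without replicate 1 at 30°C and 10.9 without replicate 2, the ends of its range over all alternatives. In a bulk library, more cells that express a gene and more RNA in each cell cannot be told apart.

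*Ucp1* also rose in HY/HY mice with cold, to a lower and less even level. It was at 0.116, 1.96 and 1.61 CPM in the 3 libraries at 30°C and at 611, 904 and 212 CPM in those at 8°C. The groups did not overlap (18.3% of genes), and within the cold group the highest library was 4.27 times the lowest, where in wild-type mice at 8°C it was 1.20 times. At 8.87 on the log2 scale (standard error 1.02, adjusted p = 0.00420), this response was the second highest of all genes in a comparison that called 0.181% of genes higher and 0.0665% lower. With only the 6 HY/HY libraries in the model it was 8.87 again but not called (adjusted p = 0.0950), and it was 9.48 without replicate 2 at 30°C. The lowest value of all 12 rested on 3 read pairs, with an exact 95% Poisson interval of 0.619 to 8.77 pairs, so the size of both folds depends on very few reads at 30°C.

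At 8°C *Ucp1* in HY/HY scWAT was 10.5% of its wild-type level. The means were 575 ± 347 CPM (SD, n = 3) and 5484 ± 517 CPM, and each HY/HY library was below each wild-type library, with no overlap for 35.4% of genes (p = 0.1 by a two-sided exact permutation test, which cannot go lower with 3 against 3). On the log2 scale this was −3.25 (standard error 0.76, adjusted p = 0.0253), in a comparison that called 4.42% of genes lower and 1.51% higher. The call was lost when any 1 of the cold libraries other than HY/HY replicate 2 was left out, with an adjusted p of 0.0598 to 0.101. At 30°C the genotypes overlapped, at 1.23 ± 0.98 CPM (SD, n = 3) against 2.02 ± 2.23 CPM, and the log2 difference of −0.71 (95% interval −2.63 to 1.22, adjusted p = 0.721) was not called where 0.562% of genes were higher and 0.441% lower. The difference between the cold responses, tested as the interaction of genotype and temperature, was −2.55 on the log2 scale (95% interval −5.04 to −0.05, adjusted p = 0.321 from edgeR) and was not called, with 2.07% of genes called lower and 0.169% higher.

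**Figure D1:**
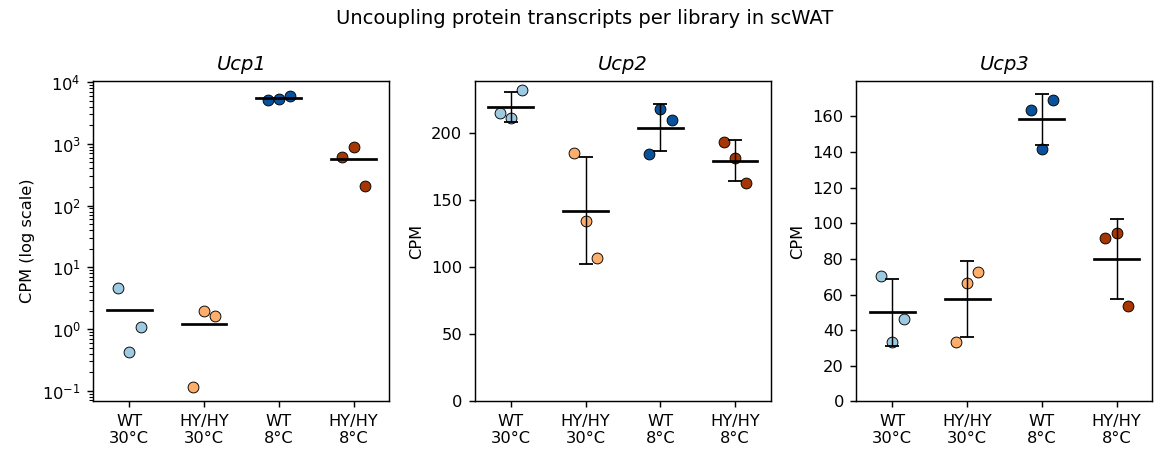
CPM of *Ucp1* (log scale), *Ucp2* and *Ucp3* in each of the 12 libraries, as points by group, with the group mean as a bar and, for *Ucp2* and *Ucp3*, the SD as error bars (n = 3). *Ucp1* lies between 0.116 and 4.58 CPM at 30°C and between 212 and 6055 CPM at 8°C, *Ucp3* is highest in the 3 wild-type libraries at 8°C, and *Ucp2* stays between 107 and 233 CPM.

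*Ucp3* rose in the cold in wild-type scWAT, by far less than *Ucp1*. It was at 70.3, 33.3 and 46.5 CPM at 30°C and at 164, 142 and 169 CPM at 8°C. All 3 cold libraries lay above the 3 at 30°C, where 43.4% of all genes did not overlap. The mean went from 50.04 ± 18.7 to 158 ± 14.5 CPM (SD, n = 3 each), a 3.16-fold difference, or 1.66 on the log2 scale (standard error 0.33, adjusted p = 0.00417 from edgeR). *Ucp3* is a gene of skeletal muscle, and the library with the high muscle markers was the lowest of its group for *Ucp3*. Without that library the log2 fold change was 1.44 (adjusted p = 0.019).

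Levels of *Ucp3* in HY/HY mice were 33.1, 66.7 and 72.8 CPM at 30°C and 91.6, 94.5 and 53.8 CPM at 8°C. The third cold library lay inside the range at 30°C, and the log2 fold change of 0.48 (95% interval −0.22 to 1.17, adjusted p = 0.520) was not called. At 8°C the genotypes did not overlap, as for 35.4% of all genes, at 80.0 ± 22.7 CPM in HY/HY against 158 ± 14.5 CPM in wild-type mice, 50.5% of the wild-type mean. The log2 fold change of *Ucp3*, −0.98 (95% interval −1.69 to −0.28, adjusted p = 0.0889), was not called. DESeq2 called it (adjusted p = 0.0264), as did edgeR on the 6 cold libraries alone (adjusted p = 0.0123). Without replicate 3 of HY/HY mice at 8°C it was −0.76, with an adjusted p of 0.282 from edgeR. The genotypes overlapped at 30°C, with a log2 difference of 0.20 (95% interval −0.50 to 0.90, adjusted p = 0.790). The difference of the cold responses was −1.19 (95% interval −2.17 to −0.20, adjusted p = 0.236) and was not called.

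*Ucp2* was the steadiest of the 3, and the cold was not followed by a called change in either genotype. It was at 215, 212 and 233 CPM in wild-type mice at 30°C and at 184, 218 and 210 CPM at 8°C. These groups overlapped, and the log2 fold change was −0.11 (95% interval −0.48 to 0.27, adjusted p = 0.688 from edgeR). The upper end of this interval lies below the lower end of that of *Ucp3* (0.95). The HY/HY libraries had 186, 134 and 107 CPM at 30°C and 193, 182 and 163 CPM at 8°C. The log2 fold change was 0.33 (95% interval −0.04 to 0.71, adjusted p = 0.396), and the groups overlapped.

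For *Ucp2* the genotypes stood apart at 30°C. Each HY/HY library was below each wild-type library, at 142 ± 40.0 against 219.7 ± 11.2 CPM (SD, n = 3 each), 64.7% of the wild-type mean. The libraries of the genotypes were likewise separate for 18.3% of all genes at 30°C, and the log2 fold change of −0.63 (95% interval −1.005 to −0.25, adjusted p = 0.0944 from edgeR) was not called. DESeq2 called it (adjusted p = 0.0196), and so did edgeR without replicate 1 of HY/HY mice at 30°C (−0.86, adjusted p = 0.0183). No other alternative called it. The adjusted p from edgeR was 0.392 with only the libraries of the comparison and 0.213 without replicate 3 of HY/HY mice at 30°C (−0.45). At 8°C the genotypes overlapped, at 179 ± 15.3 against 204 ± 17.6 CPM, a log2 difference of −0.19 (95% interval −0.56 to 0.19, adjusted p = 0.579). The difference of the cold responses was 0.44 (95% interval −0.09 to 0.97, adjusted p = 0.430).

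**Figure D2:**
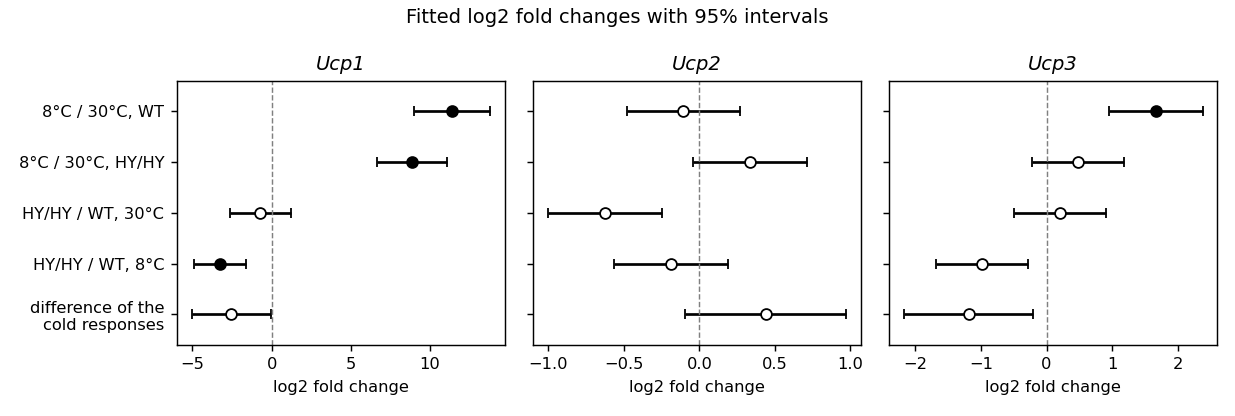
Fitted log2 fold changes of each gene in the 4 comparisons and in the difference of the cold responses, with 95% intervals as bars; filled points were called, open points were not, and each panel has its own scale. Called were *Ucp1* in the cold in wild-type (11.41) and HY/HY mice (8.87) and between the genotypes at 8°C (−3.25), and *Ucp3* in the cold in wild-type mice (1.66).

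Ranked by group mean, the order was therefore not shared. *Ucp1* went from wild-type at 8°C to HY/HY at 8°C and then to the 30°C groups, which overlapped. For *Ucp3* the order of the first pair was the same, and the next neighbours, HY/HY at 8°C and at 30°C, and then the genotypes at 30°C, overlapped. For *Ucp2* the means ran from wild-type at 30°C through wild-type and HY/HY at 8°C to HY/HY at 30°C, and every pair of neighbours overlapped.

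To compare the genes with each other, levels were divided by length, and since the lengths available are those of an older annotation, exon length (1644 bases for *Ucp1*, 6991 for *Ucp2* and 3135 for *Ucp3*, all annotated exons together) and coding length (924, 930 and 927 bases) were both used. In wild-type mice at 30°C *Ucp2* was the most abundant, at 236 ± 12.1 CPM per kb of coding length (SD, n = 3), against 54.0 ± 20.2 for *Ucp3* and 2.19 ± 2.42 for *Ucp1*. Per kb of exon length these were 31.4 ± 1.61, 15.96 ± 5.98 and 1.23 ± 1.36. In wild-type mice at 8°C *Ucp1* was at 5935 ± 559 CPM per kb of coding length, *Ucp2* at 219.5 ± 18.9 and *Ucp3* at 171 ± 15.6. Per kb of exon length the last pair changed places, with *Ucp3* at 50.5 ± 4.62 and *Ucp2* at 29.2 ± 2.52, beside *Ucp1* at 3336 ± 314. For HY/HY mice at 8°C the coding-length levels were 623 ± 376 for *Ucp1*, 193 ± 16.5 for *Ucp2* and 86.3 ± 24.5 for *Ucp3*, and the exon-length levels were 349.9 ± 211, 25.7 ± 2.19 and 25.5 ± 7.24.

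The make-up of the uncoupling protein transcripts therefore turned over in the cold. *Ucp1* was 0.716% of the 3 together per coding length in wild-type mice at 30°C and 93.8% at 8°C (0.178% to 1.59% and 93.6% to 94.1% per library). Per exon length its share was 2.32% and 97.7%. Among HY/HY mice *Ucp1* was 0.640% per coding length at 30°C and 64.8% at 8°C, where single libraries had 68.3%, 76.7% and 49.5%. Per exon length these means were 1.85% and 84.5%, with 76.1% to 90.7% in single libraries at 8°C, so that the genotypes differed there by −13.2 percentage points per exon length and by −29.0 per coding length. *Ucp2*, for which no change was called, made up 24.9% ± 11.7 of the 3 per coding length in HY/HY mice at 8°C and 3.48% ± 0.285 in wild-type mice (SD, n = 3 each). Per exon length it made up 8.18% ± 4.97 and 0.857% ± 0.0715. No share of one genotype overlapped the other at 8°C (two-sided exact permutation p = 0.1 for each gene and either length, the smallest possible). The shares of a library add up to the whole, so a lower share of *Ucp1* raises the others. These p-values are therefore not separate results for *Ucp2* and *Ucp3*. In CPM, *Ucp2* overlapped between the genotypes at 8°C, and the mean of *Ucp3* was lower in HY/HY mice, not higher. Summed over the 3 genes, the level per kb of coding length was 292 ± 25.1 CPM at 30°C and 6326 ± 576 at 8°C in wild-type mice (SD, n = 3), with 216 ± 20.2 and 902 ± 410 in HY/HY mice.

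**Figure D3:**
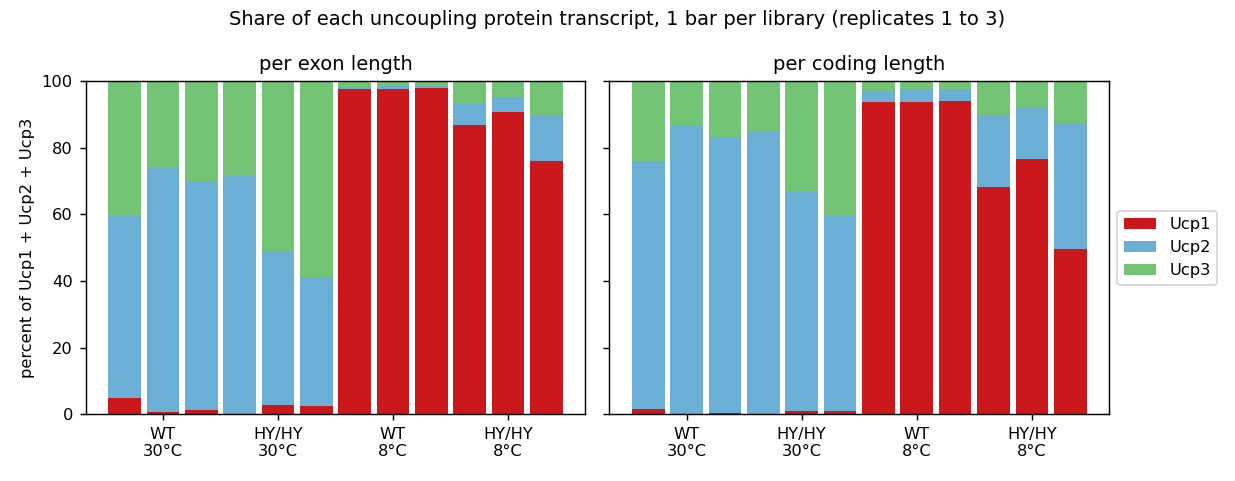
Percent of *Ucp1*, *Ucp2* and *Ucp3* in their sum, per exon length (left) and per coding length (right), with 1 stacked bar for each library in the order of replicates 1 to 3. *Ucp2* and *Ucp3* fill nearly all of each bar at 30°C, *Ucp1* fills at least 93.6% of the wild-type bars at 8°C, and it spans 49.5% to 76.7% per coding length in HY/HY mice at 8°C.

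*Ucp1* and *Ucp3* moved together from mouse to mouse inside the groups. Each library was expressed as its log2 deviation from its group mean, which removes genotype and temperature. Over the 12 libraries these deviations of *Ucp1* and *Ucp3* had a Pearson r of 0.975 and a Spearman rho of 0.965. Ranked by this r, *Ucp3* was first of 14360 genes for *Ucp1*, and *Ucp1* was first for *Ucp3*; only 8 genes went above 0.9 with *Ucp1*. In wild-type mice at 30°C the replicate highest in *Ucp1* (deviation 1.71) was highest in *Ucp3* (0.56), and the lowest (−1.41) was lowest (−0.52). In HY/HY mice at 30°C replicate 1 was low in both (−2.06 and −0.72), and at 8°C replicate 3 was (−1.21 and −0.53). The order was not the same throughout. Replicate 2 of HY/HY mice at 30°C was highest in *Ucp1* and replicate 3 in *Ucp3*, and in wild-type mice at 8°C, where deviations were small, replicate 1 was lowest in *Ucp1* (−0.12, with 0.05 in *Ucp3*) and replicate 2 in *Ucp3* (−0.15). The r was 0.989 over the 6 libraries at 30°C, 0.942 over the 6 at 8°C, and 0.955 without the 2 libraries farthest in *Ucp1*. The points share their library and depth, and the *Ucp1* values at 30°C rest on 3 to 101 read pairs.

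**Figure D4:**
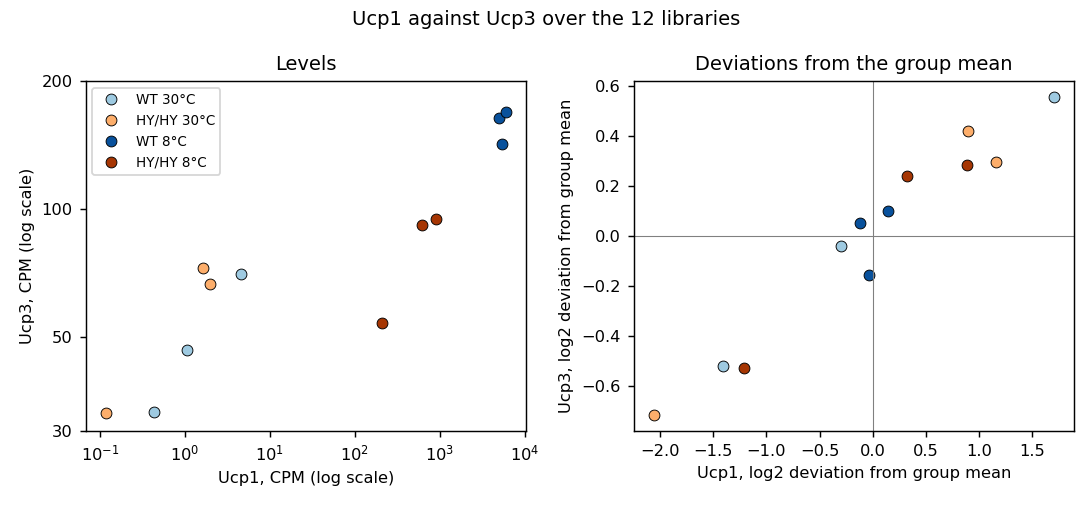
*Ucp1* against *Ucp3* in the 12 libraries, as CPM on log axes (left) and as log2 deviations from the mean of the library's own group (right), with the groups in colour. On the left the 30°C and 8°C libraries form separate clusters, and on the right the libraries lie near 1 line, with r of 0.975, those of wild-type mice at 8°C close to its centre.

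*Ucp2*, the chromosomal neighbour of *Ucp3*, had values of the opposite sign. The r of the deviations was −0.449 between *Ucp2* and *Ucp3* and −0.438 between *Ucp2* and *Ucp1*. *Ucp1* and *Ucp3* had an r of 0.617 and 0.674 with the mean log2 level of 15 thermogenic adipocyte markers, and *Ucp2* one of −0.472. With the mean of 12 macrophage markers the r was 0.666 for *Ucp2*, −0.441 for *Ucp1* and −0.338 for *Ucp3*. This was not particular to macrophages. For *Ucp2* the r was 0.691 with lymphocyte, 0.504 with mammary epithelium and 0.44 with endothelial markers. It was −0.003 with muscle and −0.236 with white adipocyte markers. Over the 12 libraries as they stand, the r of *Ucp2* with macrophage markers was −0.234. These values describe 12 libraries and carry no test.

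Across the 12 libraries as they stand, where temperature separates the values, the log2 levels most like *Ucp1* were those of *Fabp3* (r 0.982), a fatty acid binding protein of oxidative tissue, *Tada2b* (0.982), a subunit of histone acetylase complexes, and *Fabp3-ps1* (0.981), a pseudogene whose reads may come from *Fabp3*. Ranked like this, *Ucp3* was number 346 for *Ucp1*. Most like *Ucp3* were *Wars2* (0.970), the mitochondrial tryptophanyl-tRNA synthetase, *Gm9755* (0.969) and *Mrpl19* (0.956), a protein of the mitochondrial ribosome. Most like *Ucp2* were ENSMUSG00000097254.2 (0.916), *Fkbp11* (0.886), a prolyl isomerase of the secretory pathway, and *Ulk1* (0.882), a kinase that starts autophagy. Inside the groups the r was 0.493, 0.787 and 0.559 for the genes named for *Ucp1*, 0.903, 0.923 and 0.849 for those of *Ucp3*, and 0.826, 0.869 and 0.662 for those of *Ucp2*. These names depend on the measure. Ranked by Spearman rho, the 3 first for *Ucp1* were ENSMUSG00000112080.1 (0.977), *Mob1b* (0.972) and *Asf1b* (0.965), none of them named above, while *Fkbp11* stayed among the 3 first for *Ucp2*, and *Gm9755* and *Mrpl19* for *Ucp3*.

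Genes beside the uncoupling proteins were read to see whether the loci moved as blocks. Within 100 kb of the *Ucp1* start only *Elmod2*, whose start is 22.3 kb away, was found by symbol among the genes tested. *Elmod2* rose in wild-type mice in the cold by a log2 fold change of 0.68 (adjusted p = 0.00442 from edgeR), from a mean of 20.7 to 33.3 CPM. Around *Ucp2* and *Ucp3*, *Dnajb13* was at 1.94 and 3.79 CPM in wild-type mice at 30°C and 8°C (log2 fold change 0.98, adjusted p = 0.0626) and *Mrpl48* at 50.7 and 71.9 CPM (0.50, adjusted p = 0.0243, below the fold limit). Neither passed the call limits in any of the 4 comparisons, and neither interaction was called. The protein-coding gene *Coa4*, whose start is 43.8 kb from that of *Ucp2*, was not found by symbol among the genes tested and was not read.

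Among the 7 relatives in the SLC25 family that could be tested, 3 rose and 1 fell in wild-type mice in the cold, with a median log2 fold change of 0.29 against −0.07 over all genes, of which 10.3% rose and 6.93% fell. The largest rise was that of *Slc25a5*, an ADP/ATP carrier, from 222 ± 23.4 to 601 ± 29.0 CPM (log2 fold change 1.44, adjusted p = 0.000280), and the fall was that of *Slc25a27*, the brain uncoupling protein UCP4, from 8.27 to 5.19 CPM (−0.67, adjusted p = 0.0466). No relative was called by edgeR in HY/HY mice in the cold (2 at an unadjusted limit of 0.05, 1 by DESeq2). Between the genotypes at 8°C the oxoglutarate carrier *Slc25a11* alone was lower, at 111 ± 1.27 against 173 ± 14.2 CPM (−0.64, adjusted p = 0.0146), where 4.42% of all genes were. *Slc25a11* was not called without wild-type replicate 3 or HY/HY replicate 1 or 3 at 8°C, and the fall of *Slc25a27* was lost without any 1 of 8 libraries.

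The signals that drive *Ucp1* were read from lists of its known inputs. The share of all genes called higher was 10.3% in wild-type mice in the cold, and 4.42% were called lower in HY/HY mice at 8°C. Of 22 genes of β-adrenergic signalling, 7 rose and none fell in wild-type mice in the cold, led by the adenylyl cyclase *Adcy3* (35.6 ± 9.75 to 137 ± 21.6 CPM, log2 fold change 1.95, adjusted p = 0.000183), and 3 were lower in HY/HY mice at 8°C, most of all *Gnas*, the stimulatory G protein subunit (943 ± 49.6 against 2195 ± 360 CPM, −1.22, adjusted p = 0.00243). The cold response of *Gnas* differed between the genotypes (interaction −1.40, adjusted p = 0.0146). None of these genes was called by edgeR in HY/HY mice in the cold (6 at an unadjusted limit of 0.05, 1 by DESeq2) or between the genotypes at 30°C (2 and 0). The median log2 difference of the list at 8°C was −0.05, against 0.01 over all genes. Of the 3 lower there, 1 was called without wild-type replicate 2 or 3 or any 1 of the HY/HY libraries at 8°C.

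Of 33 regulators of *Ucp1* transcription, 8 rose and 1 fell in the cold in wild-type mice, beside 10.3% and 6.93% of all genes. *Dio2*, the deiodinase that makes active thyroid hormone, went from 1.09 ± 0.632 to 68.2 ± 11.6 CPM (log2 fold change 5.95, adjusted p = 0.00101). At 8°C 5 were lower in HY/HY mice (4.42% of all genes; 2 without wild-type replicate 2 or 3 or HY/HY replicate 1 or 3 at 8°C), led by *Ppara*, a nuclear receptor for fatty acids, at 2.52 ± 1.03 against 11.1 ± 1.67 CPM (−2.13, adjusted p = 0.0181). The coactivator gene *Ppargc1a* differed in its cold response, being at 3.97 and 26.4 CPM in wild-type mice at 30°C and 8°C and at 7.34 and 10.5 CPM in HY/HY mice (interaction −2.19, adjusted p = 0.0390). At 30°C only *Esrrb*, an orphan nuclear receptor, was called, at 0.815 ± 0.668 CPM in HY/HY against 7.72 ± 3.41 CPM in wild-type mice (−3.23, adjusted p = 0.0459), and it was not called when the wild-type library rich in muscle markers was left out. No regulator was called by edgeR in HY/HY mice in the cold (5 at an unadjusted limit of 0.05, 1 by DESeq2).

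Genes that handle fatty acids under the control of PPAR receptors, the fuel side of uncoupling, were read as a list of their own. Of 22, 17 rose and none fell in wild-type mice in the cold (median log2 fold change 2.27), 3 rose in HY/HY mice (median 0.85), and 14 were lower in HY/HY mice at 8°C (median −1.06), beside 10.3%, 0.181% and 4.42% of all genes. The 3 that rose in HY/HY mice became 14 without HY/HY replicate 3 at 30°C, 12 with DESeq2 and 0 with the HY/HY libraries alone, and the 14 lower at 8°C became 9 without wild-type or HY/HY replicate 3 at 8°C. *Fabp3* was at 0.679 and 955 CPM in wild-type mice at 30°C and 8°C and at 0.181 and 94.95 CPM in HY/HY mice. For the interaction, 2.07% of all genes were called lower. It was called lower for 5 genes of the list, led by the β-oxidation enzyme *Acaa2* (interaction −2.33, adjusted p = 0.00787). That count went from 1 (without wild-type replicate 1 at 30°C or HY/HY replicate 1 or 3 at 8°C) to 10 (without wild-type replicate 3 at 30°C).

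Markers of thermogenic adipocytes other than *Ucp1* summed to 139 to 375 CPM at 30°C, and at 8°C to 4450 to 4858 CPM in wild-type and 468 to 1079 CPM in HY/HY mice. This list shares *Fabp3* with the PPAR-controlled genes. It shares *Dio2*, *Ppargc1a*, *Prdm16* and *Ebf2* with the regulators, so the counts of these lists are not independent. Of 15, 11 rose and 1 fell (*Cited1*, 91.3 to 31.5 CPM) in wild-type mice in the cold, beside 10.3% and 6.93% of all genes. The median log2 fold change was 4.44, against −0.07 over all genes. In HY/HY mice 4 rose, beside 0.181% of all genes, with a median of 1.72 against −0.01. The 4 became 8 without HY/HY replicate 3 at 30°C, 1 or 2 without any 1 of 7 other libraries, and 0 with the HY/HY libraries alone. At 8°C 10 of 15 were lower in HY/HY mice, beside 4.42% of all genes, with a median of −2.02 against 0.01 over all genes. They were led by *Kng2*, a kininogen gene (3.08 ± 2.09 against 38.4 ± 4.40 CPM, −3.62, adjusted p = 0.00110). The 10 became 4 without wild-type replicate 3 or HY/HY replicate 1 or 3 at 8°C, and 5 without wild-type replicate 2. The interaction was called lower for 5 of the 15, beside 2.07% of all genes, again led by *Kng2* (interaction −4.97, adjusted p = 0.0113). It was called for 3 without wild-type replicate 1 at 30°C or HY/HY replicate 1 or 3 at 8°C. *Ucp1* stood 5.80, 5.84 and 5.90 log2 units above the mean of these markers in the wild-type libraries at 8°C, and 4.64, 4.88 and 3.76 units above it in the HY/HY libraries. The means were 5.85 ± 0.05 and 4.43 ± 0.59 (SD, n = 3), a difference of −1.42 beside a difference of −2.06 in the markers themselves, and the groups did not overlap (two-sided exact permutation p = 0.1, the smallest possible). The marker mean takes in markers that were not called at 8°C and *Cited1*, which fell in the cold. Single markers differed between the genotypes as much as *Ucp1* (−3.25), with *Fabp3* at −3.33 and *Kng2* at −3.62, and others differed less.

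Markers of other cells were summed per library, since the fat pad holds more than adipocytes. Macrophage markers summed to 348 to 493 CPM in HY/HY and 238 to 241 CPM in wild-type mice at 8°C, with 4 of 12 higher in HY/HY mice, beside 1.51% of all genes (*Cd163*, a scavenger receptor, at 22.4 ± 6.82 against 9.12 ± 0.66 CPM, log2 fold change 1.30, adjusted p = 0.0226). White adipocyte markers had 2 of 10 higher in HY/HY mice there, led by the leptin gene *Lep* (449 ± 220 against 113 ± 39.2 CPM, 1.99, adjusted p = 0.0266). The macrophage count was 1 or 2 without any 1 of the cold libraries other than HY/HY replicate 2 and 7 without HY/HY replicate 1 at 30°C, and the white adipocyte count was 0 without any 1 of those same 5 cold libraries. The part of either in the lower *Ucp1* level was not tested. At 30°C, where the HY/HY libraries had the lower *Ucp2* values, macrophage markers summed to 317 to 534 CPM in them and to 279 to 301 CPM in wild-type libraries, and mammary epithelium markers to 796 to 2302 against 2916 to 5113 CPM. None of 11 mammary markers was called by edgeR at 30°C (6 at an unadjusted limit of 0.05, 3 by DESeq2, median log2 difference −1.08), the milk protein gene *Wap* was at 0 in these 6 libraries, and the part of these cells in the *Ucp2* values was not tested.

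Skeletal muscle markers were read because *Ucp3* is a gene of skeletal muscle. With the mean log2 level of these markers *Ucp3* had an r of −0.39 over the 12 libraries and −0.533 for the deviations inside the groups. Of 13 tested muscle markers, 10 were lower in wild-type mice at 8°C than at 30°C, beside 6.93% of all genes (*Ckm*, the muscle creatine kinase, at 0.401 against 66.1 CPM, adjusted p = 0.0411). None was called without the library rich in muscle markers or without any 1 of the wild-type libraries at 8°C, and DESeq2 called 1. In the 6 libraries at 8°C the muscle list summed to 68.9 to 90.4 CPM, and *Ckm* was at 0 in all 3 HY/HY libraries. White adipocyte markers had 3 of 10 lower in wild-type mice in the cold, led by *Nnat*, an imprinted gene (919 ± 266 to 97.6 ± 107 CPM, adjusted p = 0.0336). Mammary epithelium had 2 of 11 lower, led by the adhesion gene *Epcam* (301 ± 80.6 to 145 ± 19.7 CPM, adjusted p = 0.0312), again beside 6.93% of all genes. Both counts were 0 without the same muscle-rich library. Lymphocyte markers had 1 of 12 called in wild-type mice in the cold (*Cd2*, lower), near the 6.93% of all genes called lower. Endothelial markers had 4 of 8 called (all higher, led by the VEGF receptor gene *Kdr* at 200.3 ± 54.6 against 113 ± 14.6 CPM, log2 fold change 0.83, adjusted p = 0.00939), beside 10.3% of all genes higher. The endothelial count was 1 without wild-type replicate 2 at 30°C or without wild-type replicate 1 or 2 at 8°C, and the lymphocyte call was lost without any 1 of 8 libraries. In HY/HY mice in the cold no marker of white adipocytes, muscle, macrophages, lymphocytes, mammary epithelium or endothelium was called by edgeR (5 of 66 at an unadjusted limit of 0.05, 1 by DESeq2).

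**Figure D5:**
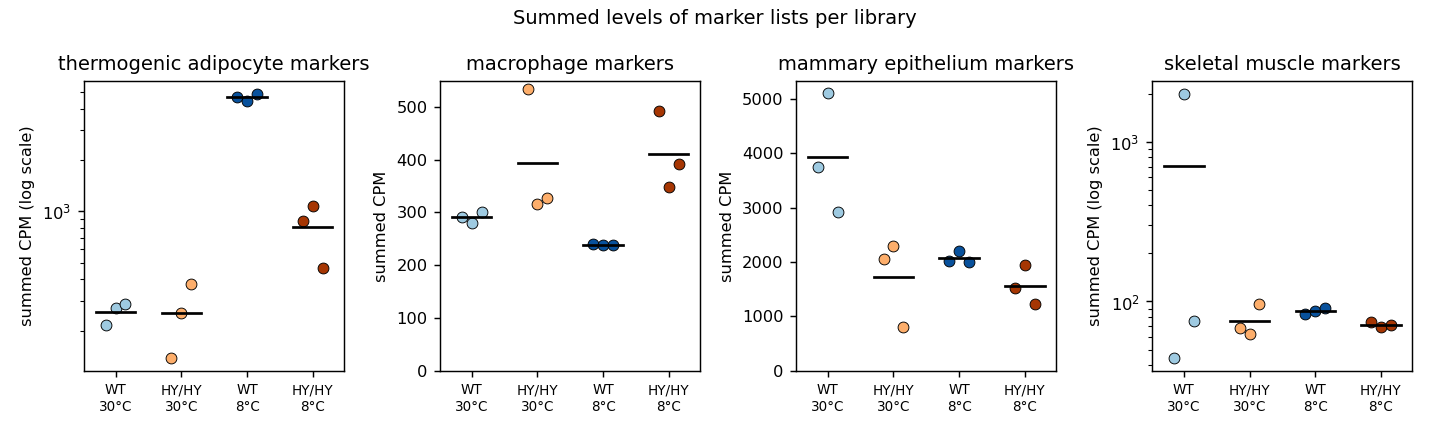
Summed CPM of the marker lists of thermogenic adipocytes and skeletal muscle (log scales), macrophages and mammary epithelium in each library, as points by group with the group mean as a bar. The thermogenic sum is 4450 to 4858 CPM in wild-type and 468 to 1079 CPM in HY/HY mice at 8°C, 1 wild-type library at 30°C holds 1989 CPM of muscle markers, and macrophage sums at 8°C do not overlap between the genotypes.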

How the data were processed

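RNA from scWAT of 12 mice was sequenced as paired 50-base reads. The authors trimmed the reads, mapped them with STAR to the mm10 genome, and deposited raw counts of read pairs on each gene, by strand and for the strands combined. Here the sense strand was used (95.5% to 96.2% of counted pairs). Pairs aligned to several places (26.7% to 32.2%) were not counted, so genes with near-identical copies are undercounted, and rows without a gene were left out of all totals. Each library came from 1 mouse caged singly. No pair of libraries of the same group agreed within sampling noise.

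The tests were run with edgeR 4.0.16 in R 4.3.3 (filterByExpr, TMM, glmQLFit and glmQLFTest, 8 residual degrees of freedom, common biological coefficient of variation 20.7%). DESeq2 1.42.0 and limma 3.58.1 (voom) served as alternatives, with others on scaling, filters, strands and left-out libraries. Tested on simulated data with 100 genes changed at each size, the model called 84% of log2 changes of 1.5 and 98% of those of 3 between the genotypes at 8°C, and 55% and 93% for the interaction. Exact permutation tests used scipy 1.17.1. Likeness was computed over genes with a mean of at least 1 CPM (log2 scale, prior count 2). Symbols, coordinates and promoters are RefSeq's for GRCm38.p6. Exon and coding lengths are those of GENCODE M1, in which the exons of *Ucp2* include retained introns.

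The 3 genes and all gene lists were chosen with earlier results of these data known. Named were the 3 genes, the 3 genes most like each, genes starting within 100 kb of them that could be tested, and the largest rise and fall of each list in each comparison among called genes. Not testable were Slc25a31, Foxc2, Tmem26, Zic1, Lhx8, Myh1, Myh2, Pvalb and *Wap*. The ranking by deviations inside the groups was chosen after the values were seen.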

Additional observations from a re-analysis of the deposited data

Results flagged for a closer look

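Read pairs on the antisense strand of *Ucp1*, which enter no comparison above, were absent from all 6 libraries at 30°C and summed to 66 in the 3 wild-type libraries at 8°C, with 16 to 29 per library. They were 0.0283% of the sense pairs of *Ucp1* there. In HY/HY mice at 8°C there were 12, with 0 to 8 per library, or 0.0453% of the sense pairs. *Ucp2* had 19 to 26 antisense pairs in each of the 4 groups and *Ucp3* 1 to 4.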

How the results depend on the processing

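Of 307 alternative values for the 15 results on *Ucp1*, *Ucp2* and *Ucp3*, 293 kept their direction and their side of the threshold, 6 were no longer called, 6 were newly called and 2 changed sign; the causes were not tested. With DESeq2, *Ucp2* between the genotypes at 30°C (−0.62, adjusted p = 0.0196) and *Ucp3* between them at 8°C (−1.004, adjusted p = 0.0264) were called. *Ucp3* at 8°C was also called without a filter on low counts (−0.98, adjusted p = 0.0399) and with only the libraries of the comparison (−0.97, adjusted p = 0.0123), while with those libraries alone the cold response of *Ucp1* in HY/HY mice was 8.87 with an adjusted p of 0.0950. With single libraries left out, *Ucp1* between the genotypes at 8°C ranged from −3.74 to −2.85, and was not called without any 1 of the wild-type replicates 1, 2 and 3 at 8°C (adjusted p = 0.0598, 0.0686 and 0.0760) or HY/HY replicates 1 and 3 at 8°C (0.0990 and 0.101). *Ucp2* at 30°C ranged from −0.86 to −0.45, and *Ucp3* at 8°C from −1.12 to −0.76, called without replicate 1 of HY/HY mice at 30°C (0.0183 and 0.0450). Between the genotypes at 30°C, *Ucp1* ranged from −1.31 to 0.78, the latter without replicate 1 of wild-type mice, and *Ucp3* from −0.023, without replicate 2 of wild-type mice, to 0.53; neither was called. The interaction of *Ucp1* lay between −4.03 and −1.94, the ends coming without wild-type replicate 1 and without HY/HY replicate 2, each at 30°C, and that of *Ucp3* from −1.51 to −0.94 over all alternatives. Scaling by library totals alone put *Ucp2* in wild-type mice in the cold at −0.44 (adjusted p = 0.118). Requiring 10 counts in every library removes *Ucp1*, which has 3 in 1 library, so that alternative gives no value for it. The count of thermogenic markers lower in HY/HY mice at 8°C ranged from 4 (without wild-type replicate 3, HY/HY replicate 1 or HY/HY replicate 3 at 8°C, and 5 without wild-type replicate 2 there) to 12 and of those higher in them in the cold from 0 to 8, the count of PPAR-controlled genes from 9 to 15 and from 0 to 14, that of macrophage markers higher at 8°C from 1 to 7, and that of endothelial markers higher in the cold in wild-type mice from 0 to 5. With the replicate number as a replicate block, no result on the 3 genes changed its call: *Ucp1* was at 11.51 and 8.77 in the cold and −3.40 between the genotypes at 8°C (adjusted p = 0.0227), and *Ucp3* at 1.67. The numbers pair no samples by the labels, and the deviations of same-numbered libraries correlated by −0.07 to 0.35. Differently numbered libraries of different groups correlated by −0.29 to 0.18. Of 18 same-numbered pairs 11 were above 0.1, and 7 of 12 libraries correlated best with one of their own number. The labels do not say what the number stands for.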
